A study of Homo sapiens with 97 samples.

Results

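Large early-replicating domains are stretches of at least 500 kb that the deposited U2OS timing lists place without a break in the earliest of 4 replication timing classes. They were found by joining touching early intervals on chromosomes 1 to 22 and X and keeping those of 500 kb or longer, which gave 423 of 2591 early domains and of 13611 timing domains in all. The members were thus chosen by their timing class and their length, and both are given as description only. U2OS is a human osteosarcoma line, and the timing lists belong to untreated wild-type U2OS cells in G1 and S phase, each deposited as 1 merged sample. The early and mid-early lists are attached to the G1 sample and the mid-late and late lists to the S sample. Together they tile these chromosomes with 0 gaps or overlaps, and they were read as classes of 1 timing profile. A pair of further lists was laid over the domains. One holds merged peaks of nascent strand sequencing (NS-seq) in wild-type AsiSI-U2OS cells, in which the restriction enzyme AsiSI cuts chromosomal DNA after 4-hydroxytamoxifen (4OHT, 300 nM for 4 h). Cells with and without 4OHT were profiled, and which of the 4 NS-seq samples were merged is not stated. The merged list is attached to an input sample, so which libraries its peaks were called on is not known here. The other holds 129 AsiSI sites of 8 bp that overlap MRE11, a nuclease that resects broken ends, in HCT116 colorectal carcinoma cells given 4OHT. These HCT116 cells are LIG4 knockouts, without the ligase of end joining, and are labelled AID RAD21, RAD21 being a cohesin subunit.

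Human cells license origins of replication along whole chromosomes in G1 by loading the MCM helicase, but fire them in a programme that runs through S phase. Neighbouring origins tend to fire at similar times, so that chromosomes replicate as long domains of uniform timing, joined by transition zones through which forks travel into later sequence. Early domains are known as gene-rich, open chromatin in the nuclear interior. NS-seq maps origins from short new strands that carry an RNA primer and so survive exonuclease digestion.

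All positions below are on hg19. Stretches that have no sequence in hg19 were not removed from any length. They can hold no peak or site, so they lower the density of a group that contains them. Each of the 6 lists is a single merged set of regions with unknown read depth, so no value has a replicate error and no p-value is given. Intervals in parentheses are exact 95% intervals for counts, shares or ratios of densities. They cover counting error only, and since peaks cluster they are narrower than the true uncertainty. Densities differ widely between chromosomes, so ratios computed within chromosomes are given beside the main pooled ratios.

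The 423 domains spanned 430 Mb, 56.0% of all early sequence and 14.6% of the listed sequence. Their median length was 832 kb, with quartiles at 637 and 1196 kb, and 149 reached 1 Mb and 24 reached 2 Mb. Most were assembled from several listed intervals, with a median of 3 and at most 10, while 89 were a single interval. The 2168 short early domains, those under 500 kb, had a median of 122 kb and spanned 337 Mb. At the threshold, the 3 members just inside measured 504.4, 505.1 and 505.2 kb, and the 3 early domains just outside measured 498.9, 497.0 and 496.7 kb.

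The longest domain lay on chromosome 15 (64486701 to 68863400, 4.38 Mb) and held 11 NS-seq peaks, 9 of them in its core, the central 50%. Next came a domain on the same chromosome (38390801 to 42098900, 3.71 Mb, 4 peaks) and a domain on chromosome 12 (48938501 to 52424600, 3.49 Mb, 11 peaks). Chromosome 10 held the fourth in length (103018701 to 106043200, 3.02 Mb), with 18 peaks, and chromosome 17 the fifth (44976701 to 47986100, 3.01 Mb), with 15. The remaining members of the 10 longest measured 2.77 to 2.99 Mb. Among them, the 2.99 Mb domain on chromosome 1 (92928501 to 95913800) had 0 peaks and the 2.86 Mb domain on chromosome 2 (37041501 to 39904400) had 1. Chromosome 8 (27510701 to 30393200, 2.88 Mb) held 3 peaks. A domain on chromosome 7 (99089801 to 101874600, 2.78 Mb) held 10 peaks, 9 of them in the core, and a cut site, and the last of the 10, on chromosome 12 (52466501 to 55240200), held 8 peaks. The number of peaks thus ran from 0 to 18 among the 10 longest domains.

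Chromosomes differed widely in how much of their length lay in large early domains. Chromosome 17 came first with 36.9% of its listed length in 25 domains, followed by chromosome 22 (33.7%, 14 domains), chromosome 15 (29.4%, 19 domains) and chromosome 19 (22.7%, 16 domains). At the other end stood chromosome 13 (3.42%, 3 domains), chromosome X (4.09%, 9 domains), chromosome 4 (6.80%, 15 domains) and chromosome 6 (7.28%, 15 domains). The share of a chromosome's early sequence that was in large domains also varied, with 71.5% on chromosome 15, 71.1% on chromosome 20 and 67.3% on chromosome 17, against 26.8% on chromosome 13 and 34.6% on chromosome X. Chromosome 19 had 51.5% of its early sequence in large domains, the longest of 1.67 Mb.

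**Figure D1:**
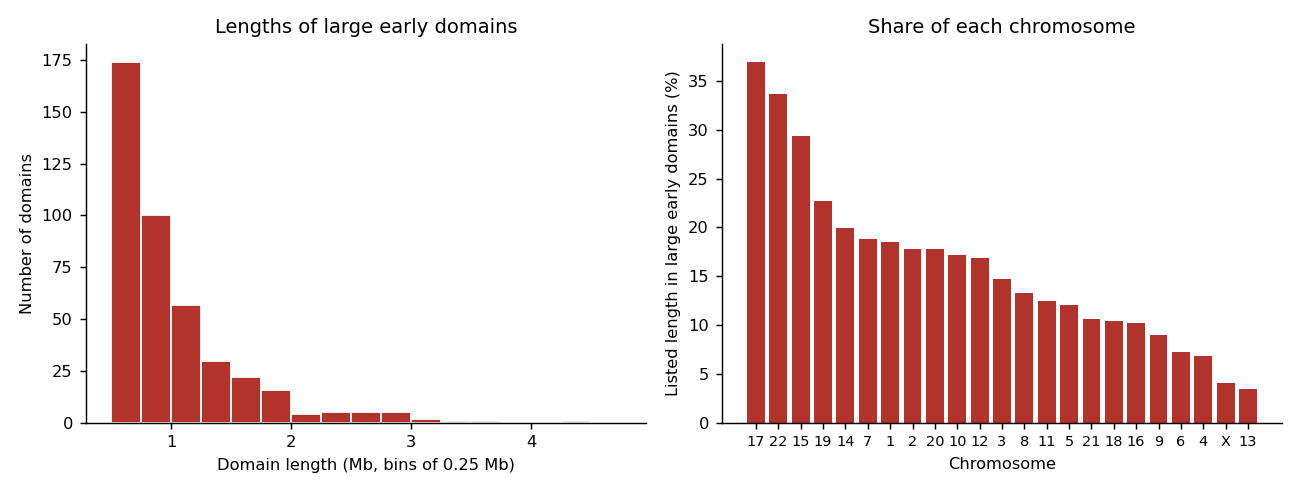
Lengths of the 423 large early domains in equal bins (left, length in Mb) and the percent of each chromosome's listed length that lies in them, by falling share (right). The shortest bin, 0.5 to 0.75 Mb, holds 174 domains, and chromosomes 17 and 22 stand highest with 36.9% and 33.7%.

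Large early domains were spread along chromosomes with wide gaps but also formed runs. The 400 gaps between neighbouring members on the same chromosome had a median of 2140 kb, and 254 were 1 Mb or longer. In contrast, 59 gaps were 100 kb or less, and these tied 111 domains into 52 runs of 2 to 4. The longest run, on chromosome 17 (39752901 to 49447600), joined 4 domains over 9.69 Mb, of which 9.50 Mb was early, and held 54 peaks. A run of 3 on chromosome 15 (62790401 to 69571400, 6.78 Mb) included the longest domain, and a run on chromosome 12 (48938501 to 55240200, 6.30 Mb) joined members of the 10 longest across 41.9 kb of mid-early sequence. Within 5 Mb of an end of the listed chromosome lay 30 domains (7.09%), and such end stretches made up 7.79% of the listed sequence.

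Nearly every border led into mid-early sequence. Of 846 borders, 838 (99.1%) met a mid-early domain and 8 a mid-late domain, and 0 met a late domain. Short early domains met mid-early sequence at 96.6% of their borders. How the classes were divided is not stated, so the classes of the direct neighbours are only described. What lay beyond the mid-early flank was less uniform. At 628 of the 838 flanks (74.9%) the profile turned back to early sequence, at 140 of them to another large domain, and at 210 (25.1%) it went on to mid-late. For short early domains these shares were 59.5% and 40.3% of 4178 flanks. The flanks of large domains had a median width of 76.7 kb (quartiles 40.1 and 130 kb). Flanks that turned back were narrower, with a median of 73.9 kb, than flanks that went on to mid-late, with 99.6 kb, whereas around short domains the medians were 92.8 and 71.1 kb. A large early domain and a short early one often share a flank, so the borders of both groups are not independent.

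Late sequence lay far from most of these domains. The median distance to the nearest late domain was 1724 kb (quartiles 911 and 3288 kb) for large early domains and 1562 kb for short ones. Only 23 large domains (5.44%) had late sequence within 500 kb, against 259 short domains (11.9%). The shortest distance was 70.3 kb, and the longest was 17155 kb, from the domain on chromosome 19 at 2296001 to 3178000.

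The question put to the NS-seq list was how many mapped origins these domains hold and where inside them. It held 3724 peaks on chromosomes 1 to 22 and X, each 1000 bp wide, and a peak was assigned by its midpoint. Large early domains contained 767 peaks, or 20.6% of the list, and 1.78 peaks per Mb (1.66 to 1.92). Of 423 domains, 212 (50.1%, 45.2 to 55.0%) held a peak, against 30.3% of all 1126 timing domains of at least 500 kb and 18.3% of the 703 such domains of the other classes. The other 211 large early domains, 192 Mb in all, held 0 peaks. The lowest score in the list was 10.0, an authors' value with no stated scale, so 0 peaks means none at or above that score.

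Peaks were very unevenly shared among the domains. There were 86 domains with 1 peak, 75 with 2 to 4, 32 with 5 to 9 and 19 with 10 or more. These 19 domains covered 8.88% of the sequence and held 268 peaks, or 34.9%. The variance of the number of peaks per domain was 11.2 and its mean 1.81. Chromosomes 17, 19 and 22 held 10 of the 19 and chromosome 7 held 3.

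The domain with most peaks lay on chromosome 7 (5448401 to 6857100) with 24, of which 18 were in its outer 25% on either side. A second domain of that chromosome (2619201 to 3599000) held 18, of which 12 were in the edges. The domain on chromosome 10 named above and a domain on chromosome 17 (39752901 to 42099500) also held 18, with 8 and 11 in the core. Chromosome 19 from 48873201 to 49974600 held 17, with 13 in the edges. Peak density was highest on chromosome 19 (51038801 to 51550000), with 14 peaks in 511 kb, or 27.4 per Mb. After it came both domains of chromosome 7 just named, the one from 2619201 first with 18.4 per Mb. The chromosome 19 domain just named had 15.4 per Mb and a domain on chromosome 12 (5857301 to 6405500) had 14.6.

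Very long domains without any peak were also present. The longest was the 2.99 Mb domain on chromosome 1, followed by a domain of 2.60 Mb on chromosome 2 (190149701 to 192752100). Another, of 2.31 Mb, lay on chromosome 7 (78809501 to 81123200). Chromosome 14 had one of 2.21 Mb (49989901 to 52197900) that was a single listed interval, and chromosome 3 one of 2.19 Mb (110726601 to 112913500). In these 5 the nearest late domain was 549 to 837 kb away. This distance was not summarised for the other domains with 0 peaks. It was 5161 kb for a 1.97 Mb domain without peaks on chromosome 5 (72465301 to 74434700). Chromosome 7 thus held both the domain with most peaks and a 2.31 Mb domain with 0.

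**Figure D2:**
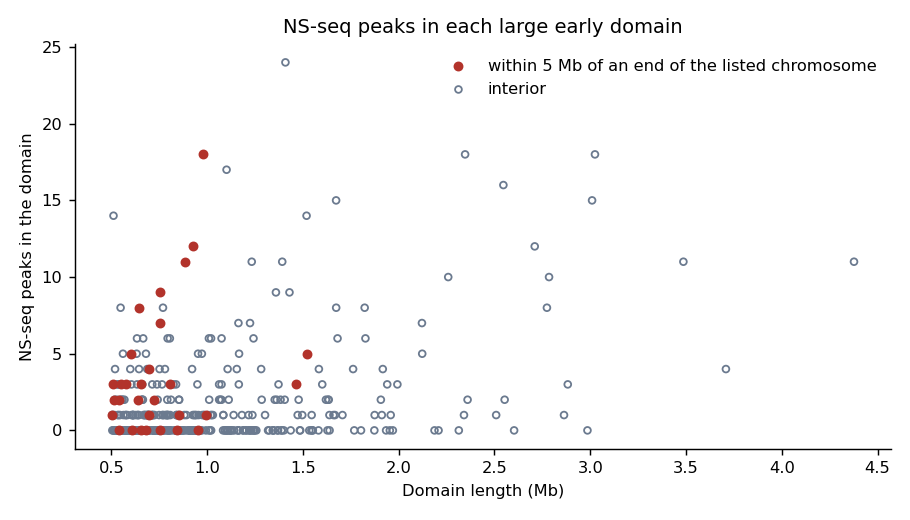
NS-seq peaks against length in Mb for each of the 423 large early domains, with domains within 5 Mb of an end of the listed chromosome filled and interior ones open. The highest point is the 1.41 Mb interior domain on chromosome 7 with 24 peaks, and points at 0 reach 2.99 Mb.

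Density did not change steadily with length. Domains of 500 to 750 kb had 1.68 peaks per Mb (1.44 to 1.94), those of 750 kb to 1 Mb 1.71, those of 1 to 1.5 Mb 1.76 and those of 1.5 to 2 Mb 1.51. The 24 domains of 2 Mb or longer stood above them with 2.38 (2.02 to 2.79), 1.42 times the 1.68 of the other 399 (1.18 to 1.70, and 1.44 within chromosomes). This split was chosen after its values were seen. The share of domains with a peak went from 43.7% in the shortest to 79.2% in the longest group, as it must in part because longer domains offer more sequence.

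Pooled over chromosomes, large early domains did not differ detectably in peak density from short early domains. The densities were 1.78 and 1.90 peaks per Mb, with a ratio of 0.94 (0.85 to 1.05). Within chromosomes the ratio was 0.86, for which no interval was computed, and large domains were denser on 9 of 23 chromosomes and less dense on 14. Under 4 alternatives that thin or drop clustered peaks, raise the length limit or join nearby domains, the pooled ratio was 1.02 to 1.06. It was 0.88 for peaks at or above the median score, 0.92 for autosomes only and 0.93 with peaks placed by any overlap. Chromosome 7 had 2.91 peaks per Mb in its large and 4.48 in its short early domains, chromosome 1 had 1.04 and 1.72, and chromosome 19 had 7.45 and 6.56. Short mid-early domains, with 2.06 peaks per Mb, were denser than large early domains, at a ratio of 0.86 (0.79 to 0.95, and 0.72 within chromosomes).

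Against all other listed sequence, with 1.17 peaks per Mb, the ratio was 1.52 (1.40 to 1.65). Any stretch without sequence in hg19 is still counted in that length. Within chromosomes the ratio was 1.14, and large early domains were denser than the rest of their chromosome on 13 of 23 chromosomes. Large late domains gave the widest contrast, with 0.183 peaks per Mb, a ratio of 9.75 (7.92 to 12.1) and 6.14 within chromosomes. Large early domains were denser on all 22 chromosomes that hold both, chromosome 22 having no large late domain.

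**Figure D3:**
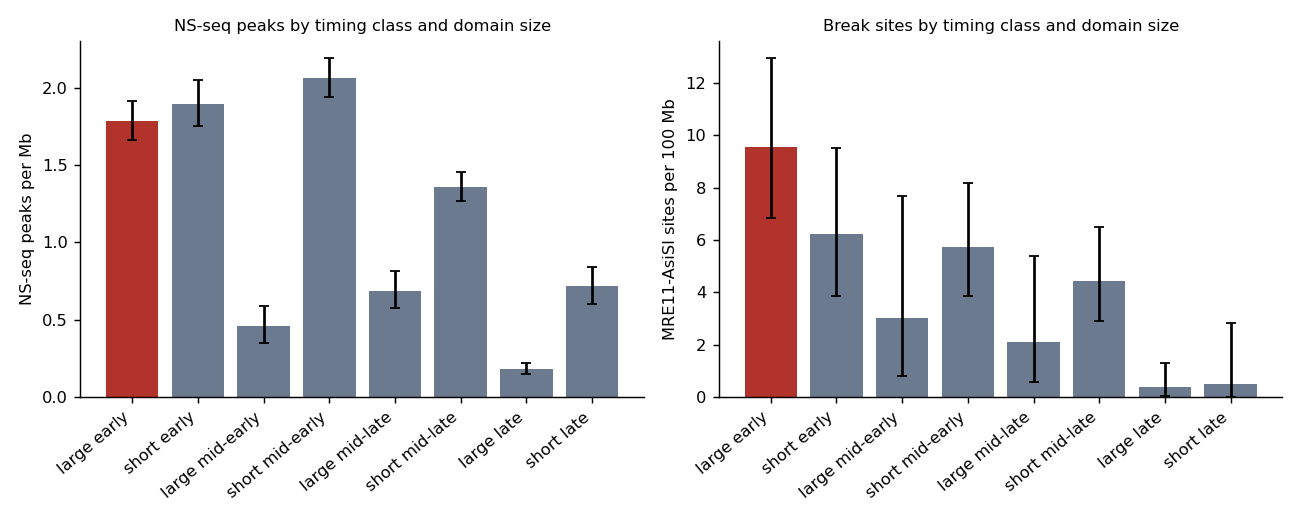
NS-seq peaks per Mb (left) and AsiSI sites overlapping MRE11 per 100 Mb (right) in domains of 500 kb or longer (large) and under 500 kb (short) of each timing class, with exact 95% counting intervals as bars. Large early domains stand at 1.78 peaks per Mb, close to short early and short mid-early domains, and at 9.54 sites per 100 Mb.

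**Figure D4:**
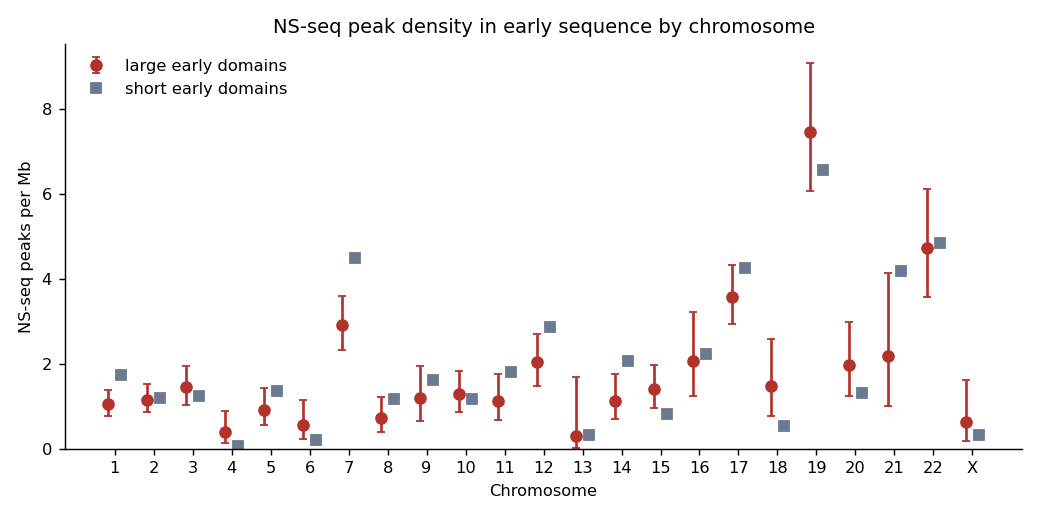
NS-seq peaks per Mb in large early domains (circles, with exact 95% counting intervals) and short early domains (squares) on each chromosome. Chromosome 19 is highest in both, with 7.45 and 6.56, and chromosome 13 has 0.304 and 0.334.

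Domains near an end of the listed sequence were denser in peaks than interior ones. The lists begin well inside some chromosomes, such as 14 and 15, so a listed end need not be a chromosome end. The 30 domains within 5 Mb of an end held 109 peaks in 22.8 Mb, or 4.78 per Mb, and the 393 interior domains 658 peaks in 407 Mb, or 1.62 per Mb. Their ratio was 2.95 (2.39 to 3.62), and 2.02 within chromosomes. Without chromosome 7, whose only such domain held 18 peaks, the densities were 4.17 and 1.56 and the ratio within chromosomes was 1.72. The limit of 5 Mb was set with earlier results of these data known.

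The core of the domains was then compared with their edge. Core and edge were the central 50% and the outer 25% on each side of every domain, so that they had equal lengths. The core held 381 of the 767 peaks (49.7%, 46.1 to 53.3%), or 1.77 per Mb, and the edge 386, or 1.80 per Mb. Of the 212 domains with peaks, 93 had more in the core, 99 more in the edge and 20 as many in both. Peak scores were alike, with medians of 11.5 in the core (quartiles 10.6 and 13.0) and 11.7 in the edge (quartiles 10.7 and 13.2). In short early domains the core share was 41.0% (37.2 to 44.9%) of 639 peaks, and in large late domains 42.6% (32.8 to 52.8%) of 101 peaks.

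On a finer scale, peaks were also split by border, a split noticed after the values were seen. With both borders pooled, in the outermost 50 kb inside the domains there were 2.39 peaks per Mb (1.94 to 2.90), followed by 1.84 at 50 to 100 kb, 1.56 at 100 to 150 kb, 1.65 at 150 to 200 kb and 2.01 at 200 to 250 kb. Of the 101 peaks in the outermost 50 kb, 68 lay at the border with the lower coordinates, at 3.22 per Mb, and 33 at the border with the higher coordinates, at 1.56 per Mb. At the higher border the density was not highest next to the border, since the bins that followed had 1.51, 1.80, 1.61 and 2.17 per Mb. Over the outer 100 kb, the lower border had 114 peaks at 2.70 per Mb, against 1.70 per Mb in the rest of the domains, a ratio of 1.58 (1.28 to 1.94, and 1.57 within chromosomes). The higher border had 65 peaks at 1.54 per Mb, a ratio to the same rest of 0.90 (0.69 to 1.17, and 0.90 within chromosomes). The pooled ratio was 1.24 (1.04 to 1.47, and 1.23 within chromosomes), and of the 2 borders only the lower had a ratio above 1.

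The highest densities lay just outside. In the first 50 kb beyond the border, of which 90.4% was mid-early, there were 3.42 peaks per Mb (2.86 to 4.04), and at 50 to 100 kb there were 3.15 (2.59 to 3.78). Beyond that the values were 2.27, 1.68 and 2.07 per Mb, in sequence that was 44.5 to 48.9% early again. Over 100 kb, the inside of the border had 2.12 and the outside 3.29 peaks per Mb, a ratio of 0.64 (0.53 to 0.78) that was also 0.64 within chromosomes. The inside was denser on 7 chromosomes and the outside on 15. The inside was the less dense at both borders, with ratios of 0.73 (0.57 to 0.94) at the lower and 0.53 (0.38 to 0.73) at the higher border. With peaks at or above the median score of 11.8 the ratio was 0.84 (0.62 to 1.12), and for domains of 1 Mb or longer it was 0.80 (0.57 to 1.12), so in both cases the interval included 1.

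**Figure D5:**
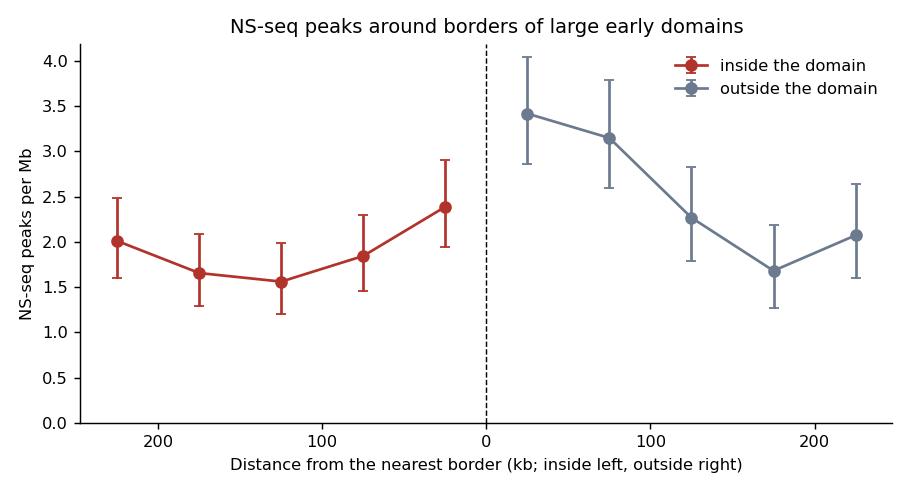
NS-seq peaks per Mb in bins of 50 kb inside (left of the dashed line) and outside (right) the borders of large early domains, both borders of a domain pooled, with exact 95% counting intervals as bars. Density is 2.39 in the last bin inside and 3.42 in the first bin outside, and is lowest at 100 to 150 kb inside with 1.56.

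Mid-early sequence was therefore read by its neighbours. The 768 mid-early domains that touch a large early domain held 2.76 peaks per Mb (2.41 to 3.13). Those that touch short early domains only held 2.18, and those that touch no early domain held 0.884. The ratio of the first to the second group was 1.27 (1.09 to 1.47), but 1.15 within chromosomes, with the first group denser on 13 chromosomes and less dense on 10. The third group includes wide stretches of up to 21.0 Mb, and any part without sequence in hg19 was not removed from its length. The ratio of the first group to the third was 3.12 (2.58 to 3.76), and 2.48 within chromosomes.

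Peaks in a domain also varied with its surroundings. The 229 domains with early sequence beyond both flanks held 2.00 peaks per Mb (1.82 to 2.19), and the other 194 held 1.55. The ratio was 1.29 (1.11 to 1.49), and 1.20 within chromosomes. Of the 194, the 170 with early sequence beyond 1 flank held 1.59 per Mb (1.41 to 1.79). The 24 with early sequence beyond neither flank held 36 peaks at 1.29 per Mb (0.905 to 1.79). Relative to large early domains of the same chromosomes, density was 1.07 for the 229, 0.91 for the 170 and 0.92 for the 24. The median distance to late sequence was 717 kb for the 24, 1315 kb for the 170 and 2035 kb for the 229.

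The list of AsiSI sites overlapping MRE11 was used to ask how many cut sites fall into these domains. Timing came from U2OS and MRE11 from HCT116, so timing in the cells that were cut is not known here. Large early domains held 41 of the 129 sites (31.8%, 23.9 to 40.6%) in 14.6% of the sequence, or 9.54 sites per 100 Mb (6.85 to 12.9). All other listed sequence held 3.49 per 100 Mb, a ratio of 2.74 (1.84 to 4.01), and 2.40 within chromosomes. Its length again includes any stretch without sequence in hg19. The number of all AsiSI sites in each group, with or without MRE11, is not known here. These densities therefore do not measure how readily a site was cut. Over short early domains, with 21 sites and 6.23 per 100 Mb, the ratio was 1.53 (0.88 to 2.73, and 1.35 within chromosomes), an interval that includes 1. Large late domains held 2 sites. By length, large early domains of 500 to 750 kb held 12.1 sites per 100 Mb and those of 750 kb to 1 Mb 8.15. Domains of 1 to 1.5 Mb held 6.62 and those of 1.5 to 2 Mb 18.3. Domains of 2 Mb or longer held 2 sites, at 3.07 per 100 Mb (0.372 to 11.1). A site was present in 37 of the 423 domains (8.75%, 6.23 to 11.9%), against 4.17% of all timing domains of at least 500 kb.

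Most domains with a site held a single one. The exceptions were the domain on chromosome 19 from 2296001 to 3178000 with 3 sites, and domains on chromosome 2 (42351701 to 44291700) and chromosome 7 (91224301 to 93158500) with 2 each. The 3 sites on chromosome 19, at 2455992, 2456093 and 2456595, lay within 1 kb of each other and may not be separate measurements. Chromosome 17 held 6 of the 41 sites and chromosome 2 held 5, while 5 chromosomes with large early domains had 0 sites in them.

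Neither core nor edge held detectably more sites at this number. The core held 19 sites (46.3%, 30.7 to 62.6%) and the edge 22, and the median distance from a site to the domain border was 241 kb. The site nearest to a border lay 7.10 kb from it on chromosome 17 (57184296 to 57184303). After it came sites on chromosome 8 (23387050 to 23387057, 31.1 kb), chromosome 6 (37321811 to 37321818, 82.4 kb), chromosome 3 (52232162 to 52232169, 93.8 kb) and chromosome 2 (85822593 to 85822600, 97.0 kb). Farthest from a border were sites on chromosome 7 (92157732 to 92157739, 933 kb), chromosome 2 (43358338 to 43358345, 933 kb, and 43452553 to 43452560, 839 kb), chromosome 7 (75807506 to 75807513, 813 kb) and chromosome 2 (172289897 to 172289904, 646 kb).

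Cut sites were then set against the nearest NS-seq peak. The share of all positions in these domains that lie as near to a peak was not computed. A peak lay within 10 kb of 1 of the 41 sites (2.44%, 0.0617 to 12.9%), the chromosome 2 site at 43452553, whose nearest peak was 5.71 kb away with a score of 10.6. Outside large early domains 8 of 88 sites (9.09%, 4.01 to 17.1%) had a peak that near, and the intervals overlap. Of these, short early domains held 21 sites, 3 with such a peak (14.3%, 3.05 to 36.3%). Within 50 kb the counts were 8 of 41 (19.5%, 8.82 to 34.9%) and 22 of 88 (16.4 to 35.4%). The 8 include the 3 close sites on chromosome 19, which may not be separate measurements but were each counted. The next nearest were the 3 sites on chromosome 19, at 21.2 to 21.8 kb, and a site on chromosome 12 (121975057 to 121975064) at 21.6 kb. Of the 37 domains with a site, 17 (45.9%, 29.5 to 63.1%) held a peak anywhere inside, and of the 386 without one 195 did (50.5%, 45.4 to 55.6%). The intervals overlap, and domains with a site were longer, with medians of 1011 and 814 kb. Peak density went the other way, with 1.94 per Mb in domains with a site and 1.77 per Mb in those without.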

How the data were processed

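Values are region lists as deposited, on hg19 per the submitters' processing notes, which also name MACS2 without version or role. The aligner, and how the authors divided timing classes or merged libraries, are not stated in the labels. The NS-seq score is the authors' deposited value per peak, with no stated scale. Starts and ends of regions are the authors' deposited coordinates, printed counting from 1. Depth per sample is unknown.

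Touching intervals of a class were joined, and 26 peaks off chromosomes 1 to 22 and X were left out. Peaks and sites were placed by midpoint. Shares have exact Clopper-Pearson intervals, densities exact Poisson intervals and ratios exact conditional intervals, all at 95%. Ratios within chromosomes are Mantel-Haenszel ratios. Each base near a border was assigned to the nearest large early domain. Runs joined domains at most 100 kb apart. Ratio and core statistics were tested on simulated data with known rates. The analysis used Python 3.11.15, pandas 2.3.3 and scipy 1.17.1.

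The members, lists and splits were chosen with earlier results of these data known. Domains named are the 10 longest, the 5 with most peaks, the 5 densest, the 5 longest with 0 peaks, those with 2 or more sites and those at the threshold. Sites named are the 5 nearest to a peak, the 5 nearest to and the 5 farthest from a border, and chromosomes named are the 4 with the largest and the 4 with the smallest share. Other domains, sites or chromosomes were named after their values were seen. Alternatives changed size, joining, placing, score, clustering, core width or the chromosomes used. Comparisons with genes or sequence on hg19 were not analysed here.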

Additional observations from a re-analysis of the deposited data

How the results depend on the processing

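Across 11 results, 290 alternatives were computed, of which 84 were chosen after seeing the data. In 275 the value stayed within the main interval (or, for the number of domains, within 1.5 times), and in 15 it moved out of it. No ratio whose interval excludes 1 turned to the other side of 1, whereas the ratio of large over short early domains and both core ratios, whose intervals include 1, did in 4 alternatives each. At a limit of 1 Mb there were 149 domains, which held 16.3% of the sites, and 59.7% of them held a peak. The share with a peak was 35.9% for peaks at or above the median score. Large over short early peak density was 1.06 without windows of 1 Mb with more than 20 peaks. Over other sequence it was 1.14 within chromosomes, 1.36 for peaks at or above the median score and 1.70 without dense windows. Core over edge peak density, 0.99 in the main division (0.85 to 1.14), was lower with narrower edges, both borders pooled. It was 0.81 with an edge of 100 kb (0.68 to 0.96) and 0.72 with an edge of 50 kb (0.58 to 0.90). Both of these intervals exclude 1, so the even split of core and edge depends on the edge width. For sites the same ratio was 0.86, and 1.76 with an edge of 100 kb (0.69 to 5.76). Inside over outside the border, it was 0.84 for peaks at or above the median score and 0.80 for domains of 1 Mb or longer. Terminal over interior density was 2.02 within chromosomes and 2.35 for ends of 2 Mb. Site density over short early domains, at a ratio of 1.53, was 1.15 at a limit of 1 Mb. It was 1.24 with domains joined across 50 kb or less, 1.46 for autosomes only and 1.49 with sites within 100 kb counted once. The cause of these shifts was not tested.

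With each chromosome left out in turn, large over short early peak density ran from 0.91 to 0.98, large early over other sequence from 1.46 to 1.61, and the share with a peak from 48.4 to 51.0%. Core over edge ran from 0.94 to 1.04, and inside over outside the border from 0.62 to 0.69. Terminal over interior ran from 2.51 to 3.30. The share of sites ran from 29.8 to 34.2%, the site ratio over short early domains from 1.37 to 1.92 and over other sequence from 2.54 to 3.14, and the core ratio of sites from 0.77 to 1.06. No paired analysis was possible because the lists are merged and carry no replicates.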

Other observations

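The borders of large early domains differed by their direction on the chromosome. In the outermost 50 kb inside the domains, 68 peaks lay at the border with the lower coordinates and 33 at the border with the higher coordinates, a share of 67.3% (exact Clopper-Pearson interval 57.3 to 76.3%, counting error only). The 68 peaks came from 48 domains and the 33 from 28 domains. The lower border held more on 12 chromosomes, fewer on 5 and as many on 6. Without chromosome 7 the counts were 56 and 32. In the first 50 kb outside, the counts were 76 and 59. This split was noticed after the values were seen.

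Inside a large early domain, 555 pairs of neighbouring peaks had a median spacing of 59.8 kb (quartiles 18.0 and 177 kb), and 89 pairs (16.0%) lay within 10 kb of each other. Peaks that were alone in their domain had a median score of 11.9 (86 peaks), and peaks in domains with 10 or more had 11.6 (268 peaks).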
